A study of Oryza sativa with 18 samples.

Results

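RNA levels of rice panicles at flowering were compared with those of panicles at booting, from the input libraries of an m6A study, that is, from RNA set aside before immunoprecipitation. The comparison takes 6 of the 18 libraries of the series, 3 from flowering panicles and 3 from booting panicles. All come from Nipponbare, a japonica cultivar with a widely used reference genome, grown in an experimental field and with no treatment or mutation named. Per the labels, flowering panicles were collected on August 14 and booting panicles on August 3 of 2019, both at about 3 PM, so stage and day of collection cannot be told apart. Whole panicles were taken, so the libraries mix all their organs and cell types. Poly(A) RNA was broken into fragments of about 100 nt and made into strand-specific libraries. Flag leaves of the same study serve here only as an outside reading of each gene. The labels do not say whether the libraries of a stage are separate plants, plots or portions of 1 collection. The p-values therefore rest on the spread among these libraries, which may be technical.

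Levels are FPKM, fragments per kilobase of transcript scaled to the mapped fragments of each library. Of 38663 genes in the deposited table, 22417 had at least 1 FPKM in 3 or more of the 6 libraries and were tested on log2(FPKM + 1), a scale that understates the change of low genes. A gene is called higher or lower where its log2 change, flowering minus booting, is 1 or more in size and its adjusted p is under 0.05, from limma with Benjamini-Hochberg adjustment over all genes tested. Libraries summed to 555285 to 569592 FPKM at flowering and 504583 to 517607 FPKM at booting, with a depth of about 30300000 to 32900000 fragments at flowering and 29100000 to 33100000 at booting. Replicates correlated at 0.9868 to 0.9902 at flowering and 0.9876 to 0.9901 at booting on the log2 scale. Means are given ± SD over 3 libraries per stage.

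At booting the rice panicle is still wrapped in the sheath of the flag leaf. Its spikelets grow, and in the anthers meiosis is followed by microspore release and the building of the pollen wall, for which the tapetum, the innermost anther layer, supplies material. At flowering the panicle is out of the sheath, its florets open by the swelling of the lodicules, filaments elongate, anthers shed pollen, and pollen tubes grow by adding wall and membrane at the tip. Tip growth is steered by ROP GTPases, calcium, actin and secretion of wall enzymes.

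At flowering 4207 genes were called higher, 18.8% of those tested, and 3574 were called lower, 15.9% of those tested. Together these were 34.7% of the genes tested, the background against which each list below is to be read. An adjusted p under 0.05 was reached by 76.7% of the genes tested. Of these, 9405 genes were not called because the change was under the size threshold, so not called does not mean unchanged. Without regard to size, every flowering library lay above every booting library for 35.3% of genes tested and below for 44.9%. Many genes named below were picked for large changes without overlap, so a lack of overlap in them only describes their values. The median change over all genes tested was -0.117. Most calls were moderate. The log2 change was between 1 and 2 for 2392 of the genes called higher and 2440 of those called lower. It was at least 5 for 328 genes called higher and 59 called lower. Genes called higher made up 39.2% of all FPKM at flowering and 5.72% at booting. Those called lower made up 6.12% at flowering and 27.5% at booting.

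**Figure D1:**
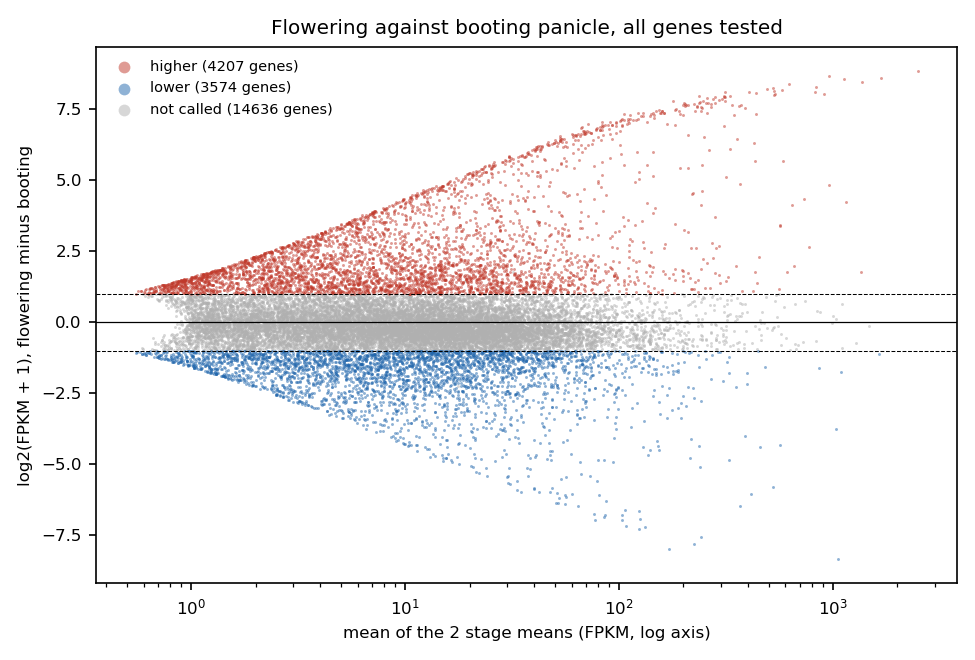
Each point is 1 of the 22417 genes tested, with the mean of the flowering and booting means in FPKM on a log axis and the log2 change, flowering minus booting, on the vertical axis. Dashed lines mark an absolute log2 change of 1. Points above reach 8.83 and points below -8.34, and the upper edge is more densely filled than the lower one.

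The gene with the largest increase has no description in the deposited table (LOC_Os06g21410, chromosome 6, 12366594 to 12368160, plus strand). It had 4133, 6004 and 4803 FPKM at flowering, against 9.16, 9.02 and 11.6 FPKM at booting. The 3 flowering libraries stood far above the 3 booting libraries (log2 change 8.83, SE 0.16, adjusted p = 3.61e-09), and no gene tested had a higher mean at flowering. Expansin-B9 (LOC_Os10g40090), a beta-expansin of the type that loosens grass cell walls, came next in abundance with 3612, 3493 and 2943 FPKM at flowering, against 6.54, 8.73 and 7.89 FPKM at booting. The largest decrease was that of a gene listed as uncharacterized protein At4g06744 (LOC_Os02g40260, chromosome 2, 24372805 to 24374496, plus strand), with 5.36, 6.17 and 4.86 FPKM at flowering, against 2352, 1619.7 and 2373 FPKM at booting. All 3 booting libraries lay above all 3 flowering libraries (log2 change -8.34, SE 0.16, adjusted p = 4.39e-09). MLP-like protein 423 (LOC_Os04g39150) was among the most abundant genes at booting, with 152 ± 77.3 FPKM at flowering and 1922 ± 248 FPKM at booting (log2 change -3.76). Another gene without a description (LOC_Os09g31080) had the highest mean of all at booting, with 1039 ± 228 FPKM at flowering and 2249 ± 379 FPKM at booting. Its log2 change of -1.12 fell short of the threshold without flowering replicate 2 (-0.99) and under median-of-ratios scaling (-0.93).

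For many abundant genes the level in the lower stage lay in a narrow band. Among 427 genes called higher with a mean of at least 100 FPKM at flowering, 137 had a booting mean between 0.2 and 0.4% of the flowering mean, 14 were below that band, and 31 lay between 0.4 and 1%. Among 286 genes called lower with at least 100 FPKM at booting, 13 lay in the same band and 5 below it. The source of this low level was not tested, and for such genes the size of the change is uncertain. The band from 0.2 to 0.4% holds expansin-B9 above and many of the largest increases given below. Among these are RIC7, RopGEF 9, RopGEF 10, a FERONIA-type kinase (LOC_Os05g20150), Lol p 2-A (LOC_Os06g45290) and expansin-B1 (LOC_Os03g01610).

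Marker lists gave a reading of the tissues in the 2 stages. Of 33 pollen markers (pollen-specific, anther-specific and pollen allergen genes), 28 were tested, of which 20 were called higher and 4 lower. Their summed level was 8141 to 10984 FPKM in flowering libraries and 198 to 275 FPKM in booting libraries. Green tissue markers (antenna proteins, photosystem I subunits, RuBisCO small subunit and activase) numbered 24 tested of 26, with 18 called higher and none lower. They summed to 8017 to 10269 FPKM at flowering, 1927 to 2703 FPKM at booting and 26453 to 27081 FPKM in flag leaves. In bulk panicles, a change in the number of cells of a type and a change in RNA per cell cannot be told apart. The part of either tissue in the changes given below was not tested.

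Of 10 floral organ identity genes of the MADS-box family, none was called lower and 3 were called higher: MADS13 (LOC_Os12g10540), an ovule identity gene, at 39.05 ± 5.395 FPKM at flowering and 6.43 ± 0.466 FPKM at booting (log2 change 2.42), and MADS58 (LOC_Os05g11414) and MADS3 (LOC_Os01g10504), which act in stamens and carpels, at log2 changes of 1.86 and 1.67. Without flowering replicate 1 or booting replicate 1, 1 gene of the list was called lower. MADS1 (LOC_Os03g11614), which specifies lemma and palea, had 718 ± 84.7 FPKM at flowering and 367 ± 10.3 FPKM at booting and was not called (log2 change 0.96), though it passed the threshold without flowering replicate 3 (1.05) and under median-of-ratios scaling (1.15). Of 28 seed storage genes, 25 stayed below the level needed for a test. An 11S globulin (LOC_Os01g74480) had 37.7, 55.04 and 58.7 FPKM at flowering, against 3.46, 22.5 and 2.93 FPKM at booting. The flowering libraries were all above the booting libraries, with booting replicate 2 nearest to them (log2 change 2.77, SE 0.61, adjusted p = 0.00327). The whole list summed to 58 to 105 FPKM at flowering and 10 to 30 FPKM at booting.

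**Figure D2:**
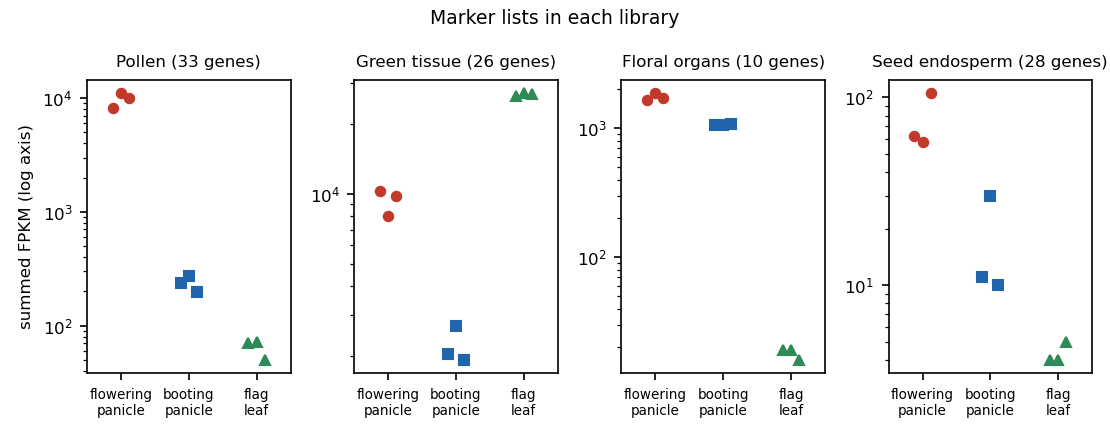
Summed FPKM of 4 marker lists in each library, on log axes, with 3 flowering panicle, 3 booting panicle and 3 flag leaf libraries per panel. The pollen sum is 8141 to 10984 FPKM in flowering panicles and 198 to 275 FPKM in booting panicles, and the green tissue sum lies between those of booting panicles and flag leaves.

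ROP GTPases switch between an active and an inactive state, set on by exchange factors (RopGEFs), off by GTPase-activating proteins (GAPs) and held back by GDP-dissociation inhibitors (GDIs). RIC proteins carry the signal to actin and calcium. Of 28 members tested, 5 were called higher and 16 lower at flowering (median log2 change -1.4). The list summed to more at flowering all the same, 1195 to 1613 FPKM against 605 to 665 FPKM at booting. RIC7 (LOC_Os07g26480) had 528, 740.1 and 589 FPKM at flowering, against 1.601, 1.24 and 1.8 FPKM at booting. RopGEF 9 (LOC_Os01g48410) had 263, 380.2 and 329 FPKM at flowering, against 1.05, 0.853 and 0.993 FPKM at booting. The booting libraries of both genes were close to 0 beside the flowering libraries (log2 change 7.92, SE 0.14, adjusted p = 3.5e-09 for RIC7). Both genes lie in the narrow band described above, where the size of the change is uncertain. RopGEF 10 (LOC_Os02g17240) followed with 137 ± 22.7 FPKM at flowering and 0.405 ± 0.0927 FPKM at booting (log2 change 6.6). The only GAP called higher was REN1 (LOC_Os03g11140), known in Arabidopsis for confining ROP activity to the pollen tube tip, at 37.7 ± 6.11 FPKM at flowering and 14.1 ± 0.652 FPKM at booting (log2 change 1.34).

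Other members of the same families moved the opposite way. Of 5 Rac/ROP GTPases, 3 were called lower and none higher. Rac-like GTPase 3 (LOC_Os02g50860), the most abundant of them at booting, had 41.5, 39.2 and 39.4 FPKM at flowering, against 143, 148 and 162 FPKM at booting, with no overlap (log2 change -1.88, SE 0.08, adjusted p = 2.16e-07). Both genes described as RopGEF 7 fell, LOC_Os05g38000 at 0.175 ± 0.0596 FPKM at flowering and 18.7 ± 3.06 FPKM at booting (log2 change -4.06) and LOC_Os01g62990 with a log2 change of -3.01. A second gene described as RopGEF 9 (LOC_Os05g48640) was called lower, at 7.71 ± 1.28 FPKM at flowering and 22.02 ± 2.18 FPKM at booting (log2 change -1.41). A pair of genes described as rho GDI 1 went in opposite directions. LOC_Os01g68540 had 72.3, 110.3 and 87.6 FPKM at flowering, against 1.06, 1.47 and 1.18 FPKM at booting, and LOC_Os02g48730 had 0.5902, 0.773 and 1.01 FPKM at flowering, against 46.1, 50.3 and 58.3 FPKM at booting. The stages did not overlap for either (log2 change 5.33, SE 0.15, adjusted p = 3e-08 and log2 change -4.88, SE 0.12, adjusted p = 1.54e-08).

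Among cell surface receptors and their RALF peptide ligands, small secreted signals read by FERONIA-type kinases, 9 of 16 were called higher and 3 lower (median 2.19). A FERONIA-type kinase (LOC_Os05g20150) had 119, 156 and 124 FPKM at flowering, against 0.365, 0.335 and 0.315 FPKM at booting. RALF-like 33 (LOC_Os01g10470) had 109, 131 and 126 FPKM at flowering, against 0.253, 0.157 and 0.445 FPKM at booting, and a second gene of that description (LOC_Os05g11330) had 58.3 ± 6.21 FPKM at flowering and 0.118 ± 0.0187 FPKM at booting (log2 change 5.72). Every flowering library of these genes was above every booting library (log2 change 6.64, SE 0.11, adjusted p = 3.2e-09 for the kinase). Rapid alkalinization factor 23 (LOC_Os11g26880) fell, at 39.7 ± 2.63 FPKM at flowering and 249.9 ± 40.7 FPKM at booting (log2 change -2.61, SE 0.12, adjusted p = 3.85e-07). So did another FERONIA-type kinase (LOC_Os01g56330), at 22.02 ± 2.12 FPKM at flowering and 58.5 ± 1.75 FPKM at booting (log2 change -1.37).

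Calcium sensors and their kinases had 42 of 129 members called higher and 11 lower, with a median of 0.08 that turned to -0.02 when libraries were scaled to equal sums. With a pseudocount of 5, 27 were called higher. CDPK 34 (LOC_Os01g59360), whose Arabidopsis counterpart acts in pollen tubes, had 404, 624 and 497 FPKM at flowering, against 1.32, 1.29 and 1.64 FPKM at booting, with no overlap (log2 change 7.7, SE 0.15, adjusted p = 4.76e-09). CDPK 7 (LOC_Os12g12860) and CIPK 5 (LOC_Os01g10890) had log2 changes of 7.0 and 5.98. A plasma membrane calcium pump (LOC_Os01g71240) stood at 23.4 ± 1.93 FPKM at flowering and 0.354 ± 0.0996 FPKM at booting (log2 change 4.17), and cyclic nucleotide-gated channel 14 (LOC_Os12g06570) at 6.96 ± 0.902 FPKM at flowering and 0.206 ± 0.147 FPKM at booting (log2 change 2.72). The kinases CDPK 16 (LOC_Os05g39090), the calcium/calmodulin-dependent kinase (LOC_Os07g44710) and CIPK 18 (LOC_Os05g26820) fell, with log2 changes of -2.33, -2.09 and -1.78.

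**Figure D3:**
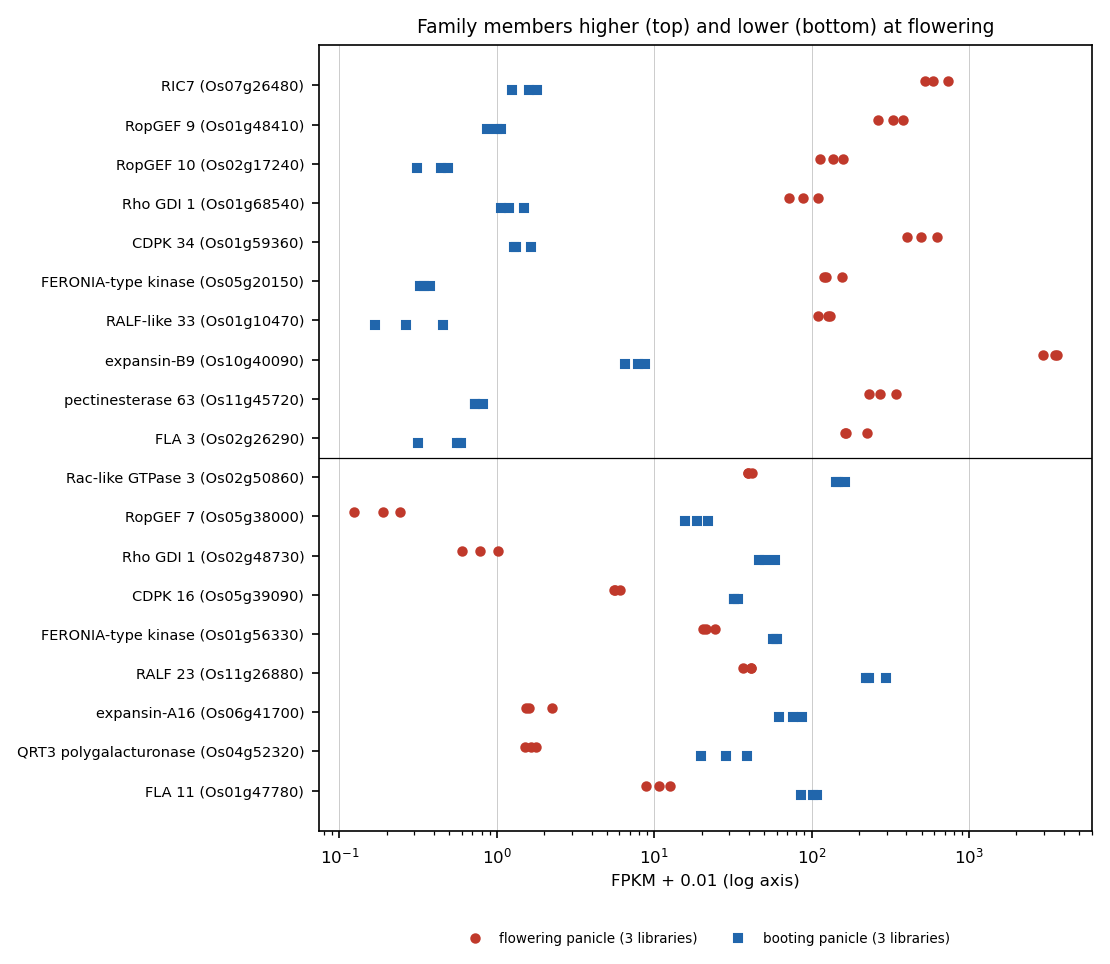
FPKM + 0.01 on a log axis for 19 signalling and wall genes, with 3 flowering libraries (circles, drawn above) and 3 booting libraries (squares, drawn below) for each gene. The 10 genes above the line are higher and the 9 below it lower at flowering in every library, and members of the same families stand on both sides of it.

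Wall enzymes likewise had calls in both directions. Of 25 beta-expansins and related pollen allergens tested, 18 were called higher and 5 lower (median 7.11), whereas 4 of 13 alpha-expansins were higher and 6 lower. The allergens Lol p 2-A (LOC_Os06g45290) and expansin-B1 (LOC_Os03g01610) reached 494 against 1.22 FPKM and 476 against 1.22 FPKM in mean, flowering against booting. Many of the allergen genes have the same description and may be close copies that share reads, which makes each single value uncertain. Their sequences were not compared. Alpha-expansin A16 (LOC_Os06g41700) had 1.58, 1.51 and 2.24 FPKM at flowering, against 86.4, 62.2 and 76.5 FPKM at booting, and A7 (LOC_Os03g60720) had 11.5 ± 1.47 FPKM at flowering and 126 ± 13.8 FPKM at booting (log2 change -3.34). The flowering libraries of A16 were all below its booting libraries (log2 change -4.77, SE 0.15, adjusted p = 4.21e-08).

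Pectin is set hard by pectinesterases and cut by polygalacturonases and pectate lyases. The whole list, inhibitors of these enzymes included, was even in calls, with 29 of 82 higher and 29 lower. Its median of -0.06 became 0.12 under median-of-ratios scaling. The summed level was not even, at 2899 to 3730 FPKM in flowering libraries and 716 to 801 FPKM in booting libraries. Within the list 16 of 30 pectinesterases were called higher and 8 lower, while 4 of 32 polygalacturonases were higher and 15 lower. The polygalacturonases still summed to more at flowering (683 to 787 FPKM) than at booting (424 to 478 FPKM). With a pseudocount of 5 the pectin enzymes called lower dropped to 13. Pectinesterase 63 (LOC_Os11g45720) had 233, 342 and 272 FPKM at flowering, against 0.713, 0.712 and 0.807 FPKM at booting, a pectate lyase (LOC_Os06g38510) had a log2 change of 7.26 and an exopolygalacturonase (LOC_Os06g35320) of 7.15. QRT3 (LOC_Os04g52320), the polygalacturonase that in Arabidopsis frees the microspores of a tetrad, had 1.77, 1.503 and 1.63 FPKM at flowering, against 38.6, 19.9 and 28.6 FPKM at booting. The stages were apart for both enzymes (log2 change 7.33, SE 0.13, adjusted p = 3.61e-09 for pectinesterase 63 and log2 change -3.46, SE 0.21, adjusted p = 1.54e-06 for QRT3).

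Among arabinogalactan proteins, glycoproteins of the cell surface, most genes were lower: 15 of 25 were called lower and 5 higher (median -1.3). Their summed level was nevertheless higher at flowering, at 2303 to 3031 FPKM against 1197 to 1268 FPKM at booting. The fasciclin-like members (FLA) summed to 484 to 523 FPKM at flowering and 793 to 853 FPKM at booting. Classical AGP 6 (LOC_Os06g17450), a pollen protein in Arabidopsis, and a pair of adjacent FLA 3 genes (LOC_Os02g26290 and LOC_Os02g26320) were among the 5. The FLA 3 genes had log2 changes of 6.95 and 6.0, and such neighbours can share reads. FLA 11 (LOC_Os01g47780), known in Arabidopsis from cells making secondary walls, had 10.8, 8.85 and 12.6 FPKM at flowering, against 108, 85.5 and 102 FPKM at booting, and classical AGP 26 (LOC_Os01g71170) had 3.86 ± 1.36 FPKM at flowering and 41.2 ± 1.296 FPKM at booting (log2 change -3.16). No flowering library of FLA 11 reached its lowest booting library (log2 change -3.09, SE 0.14, adjusted p = 2.88e-07).

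Actin genes and regulators had 22 of 112 members called higher and 31 lower. Profilin-A, which feeds monomers to growing filaments, was higher under both its loci, of which LOC_Os10g17660 had 662 ± 123 FPKM at flowering and 1.61 ± 0.164 FPKM at booting. Myosin-binding protein 1 (LOC_Os10g27480) had 368, 539 and 439 FPKM at flowering, against 1.06, 0.995 and 1.44 FPKM at booting, each flowering library above each booting library (log2 change 7.68, SE 0.14, adjusted p = 4.23e-09). A gene described as LIM1 (LOC_Os08g43290) fell, at 1 ± 0.247 FPKM at flowering and 251 ± 91.1 FPKM at booting (log2 change -6.91). It is in this list by its description alone, which does not show that it acts on actin. Actin-7 (LOC_Os12g06660) fell as well (log2 change -3.72). Actin-1 (LOC_Os03g50885), the most abundant gene of this kind with little change, had 503, 642 and 615 FPKM at flowering, against 491, 506 and 545 FPKM at booting, and its stages differed by 0.18 on the log2 scale.

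Vesicle traffic was close to background, with 23 of 132 members higher and 26 lower. By median-of-ratios scaling 16 were lower, and with a pseudocount of 5 there were 13 higher. A clathrin assembly protein (LOC_Os02g07900) had 483 ± 102 FPKM at flowering and 1.76 ± 0.369 FPKM at booting (log2 change 7.44), and VAMP 726 (LOC_Os03g06960), a vesicle SNARE, had 184 ± 38.2 FPKM at flowering and 1.07 ± 0.0447 FPKM at booting (log2 change 6.46). KNOLLE-like syntaxin (LOC_Os03g52650) and NPSN13 (LOC_Os07g44350), of the family known in Arabidopsis for fusing vesicles at the forming cell plate, had 4.03, 4.41 and 4.29 FPKM at flowering, against 15.95, 25.04 and 26.9 FPKM at booting for the syntaxin and 22.5 ± 0.973 FPKM at flowering and 122 ± 6.25 FPKM at booting for the SNARE. Both were lower in every flowering library than in every booting library (log2 change -2.14, SE 0.18, adjusted p = 1.04e-05 and log2 change -2.39, SE 0.07, adjusted p = 4.84e-08).

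Sporopollenin, the polymer of the outer pollen wall, is made in the tapetum from fatty acids hydroxylated by cytochromes P450, extended by polyketide synthases and reduced. Of 20 genes tested, 14 were called lower and 2 higher (median -2.78). The 2 higher genes were fatty acyl-CoA reductases of chromosome 7, of which LOC_Os07g23340 had 12.4 ± 1.45 FPKM at flowering and 2.67 ± 0.4404 FPKM at booting. Without booting replicate 2, 4 were called higher. P450 703A2 (LOC_Os08g03682), tetraketide pyrone reductase 2 (LOC_Os01g03670), polyketide synthase B (LOC_Os07g22850), fatty acyl-CoA reductase 2 (LOC_Os03g07140) and the exporter ABCG26 (LOC_Os06g40550) all fell. P450 703A2 had 0.581, 0.751 and 0.811 FPKM at flowering, against 160.0, 68.4 and 129.8 FPKM at booting (log2 change -6.05, SE 0.27, adjusted p = 3.26e-07). The list summed to 128 to 147 FPKM in flowering libraries and to 879, 1405 and 1760 FPKM in booting libraries, the lowest of them replicate 2. ABCG26 had 0.0412, 0.0137 and 0.0531 FPKM at flowering, against 37.1, 16.6 and 28.9 FPKM at booting, so it was close to 0 in all flowering libraries (log2 change -4.71, SE 0.25, adjusted p = 7.67e-07).

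Other genes with the same direction included phi-class glutathione S-transferases and tapetal regulators. GST F12 (LOC_Os03g04220), F11 (LOC_Os03g04240) and F10 (LOC_Os03g04250), neighbours on chromosome 3, had log2 changes of -6.08, -5.33 and -4.83. GST F12 had 1.14, 1.54 and 1.38 FPKM at flowering, against 127, 162 and 189 FPKM at booting. Among transcription factors MYB35 (LOC_Os03g18480), whose Arabidopsis counterpart is needed in the tapetum, had 0, 0.0477 and 0 FPKM at flowering, against 21.5, 18.4 and 28.04 FPKM at booting, and bHLH91 (LOC_Os04g51070), likewise a tapetal factor in Arabidopsis, had 2.73, 4.998 and 5.39 FPKM at flowering, against 43.5, 32.1 and 42.7 FPKM at booting. No library of the flowering stage reached any library of the booting stage for these genes (log2 change -4.52, SE 0.15, adjusted p = 6.76e-08 for MYB35 and log2 change -2.94, SE 0.21, adjusted p = 4.42e-06 for bHLH91). bHLH137 (LOC_Os08g42470) showed the largest decrease of the bHLH genes that met the naming rule, at 0.693 ± 0.124 FPKM at flowering and 96.3 ± 2.13 FPKM at booting (log2 change -5.85). Of 60 bHLH genes 11 were called higher and 25 lower, with 10 lower at a pseudocount of 5.

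Lipid transfer proteins, small secreted carriers of lipids, had 17 of 40 called lower and 11 higher. A non-specific lipid transfer protein (LOC_Os01g60740) had 36.4, 42.4 and 41.7 FPKM at flowering, against 720.0, 811 and 1091 FPKM at booting, all flowering libraries below the booting ones (log2 change -4.39, SE 0.16, adjusted p = 9.23e-08). A pair on chromosome 12 went the other way. Lipid transfer protein 3 (LOC_Os12g02340) had 568, 709 and 661 FPKM at flowering, against 5.72, 23.5 and 4.09 FPKM at booting, where replicate 2 was the highest. Protein 1 (LOC_Os12g02320) had 164 ± 18.4 FPKM at flowering and 2.37 ± 1.05 FPKM at booting. In flag leaves the pair had 141 ± 5.78 FPKM and 428 ± 26.9 FPKM. Neighbouring lipid transfer genes were split. LOC_Os12g02330 was also called higher (log2 change 3.83) and LOC_Os12g02310 was not called. LOC_Os12g02300 and LOC_Os12g02290 were called lower (log2 changes -3.37 and -3.55). Cuticle and wax genes had 22 of 44 called lower and 8 higher, the 8 all lost with a pseudocount of 5. ECERIFERUM 1 (LOC_Os02g56920), which makes wax alkanes in Arabidopsis, fell, at 3.54 ± 1.11 FPKM at flowering and 35.5 ± 4.78 FPKM at booting (log2 change -3.03, SE 0.18, adjusted p = 1.38e-06). Its list mates KCS 20 (LOC_Os10g28060), which extends fatty acids, and P450 77A3 (LOC_Os06g46680) had log2 changes of -3.05 and -2.87. The ERF-type factor WIN1 (LOC_Os06g40150), known in Arabidopsis as an activator of wax and cutin genes, fell, at 3.35 ± 0.732 FPKM at flowering and 25.4 ± 4.78 FPKM at booting (log2 change -2.6).

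The list of secretory peroxidases, which use or generate peroxide in walls, and laccases was also divided. Of its 69 genes, 28 were called lower and 17 higher, or 14 and 7 with a pseudocount of 5. Peroxidase 44 (LOC_Os03g05770) had 144, 189 and 168 FPKM at flowering, against 0.389, 0.478 and 0.375 FPKM at booting, whereas a peroxidase A2 (LOC_Os03g13200) had 1.15, 0.955 and 1.27 FPKM at flowering, against 285, 175 and 179 FPKM at booting. Stages did not overlap in either gene (log2 change 6.88, SE 0.11, adjusted p = 2.81e-09 and log2 change -6.62, SE 0.18, adjusted p = 2.23e-08).

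Microtubule genes had the largest share called lower among the 40 lists apart from sporopollenin genes. Of 79, 55 were called lower and 9 higher (median -1.59). The decrease reached 9 of 11 tubulins and 28 of 39 kinesins, the motor proteins of spindles and of cargo. Tubulin alpha-2 (LOC_Os11g14220), among the most abundant genes at booting, had 510.0, 486 and 503 FPKM at flowering, against 1518, 1673 and 1886 FPKM at booting. Its 3 flowering libraries were all below the booting libraries (log2 change -1.75, SE 0.14, adjusted p = 7.87e-06). Tubulin beta-1 (LOC_Os01g18050) had 48.04 ± 3.59 FPKM at flowering and 287 ± 33.1 FPKM at booting (log2 change -2.55) and beta-5 (LOC_Os02g07060) 54.3 ± 4.03 FPKM at flowering and 265 ± 16.2 FPKM at booting (log2 change -2.26).

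The 2 tubulins called higher were beta-8 (LOC_Os03g45920), with 36.05, 44.1 and 38.8 FPKM at flowering, against 18.9, 18.2 and 13.1 FPKM at booting (log2 change 1.21, SE 0.14, adjusted p = 8.31e-05), and a second gene described as alpha-2 (LOC_Os03g11970), with 33.6 ± 3.81 FPKM at flowering and 14.3 ± 0.735 FPKM at booting, which missed the size threshold with a pseudocount of 5. Among kinesins, NACK1 (LOC_Os02g43130), a motor of the cell plate in tobacco, had 14.8, 14.3 and 16.7 FPKM at flowering, against 71.3, 74.2 and 66.1 FPKM at booting. Every booting library exceeded every flowering library (log2 change -2.14, SE 0.09, adjusted p = 1.72e-07). Of the other genes described as NACK1, LOC_Os01g33040 was called lower (log2 change -2.28) and LOC_Os04g45580 was not called (-0.49). NACK2 (LOC_Os09g35890) had 83.7 ± 16.03 FPKM at flowering and 146 ± 7.72 FPKM at booting and was not called (log2 change -0.81). A kinesin-4 (LOC_Os03g18980) had a log2 change of -3.78. KIN-7G (LOC_Os06g10480) rose, at 78.7 ± 13.9 FPKM at flowering and 5.79 ± 0.464 FPKM at booting, and so did another kinesin-4 (LOC_Os11g44880), at 40.3 ± 6.85 FPKM at flowering and 2.67 ± 0.137 FPKM at booting. The pair of genes described as MAP65-3, which bundles microtubules in the phragmoplast of Arabidopsis, went in opposite directions: LOC_Os02g03400 had 18.8 ± 3.98 FPKM at flowering and 0.173 ± 0.127 FPKM at booting (log2 change 4.06) and LOC_Os01g49200 had 6.99 ± 1.303 FPKM at flowering and 33.7 ± 5.33 FPKM at booting (log2 change -2.12). MYB3R-1 (LOC_Os01g12860), of the family that activates mitotic genes, had 3.44 ± 0.465 FPKM at flowering and 11.99 ± 1.16 FPKM at booting (log2 change -1.55, SE 0.12, adjusted p = 5.74e-06).

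Many transcription factors of growth and patterning fell. Of 91 GRF, TCP, YABBY, SPL, KNOX and homeobox genes, 43 were called lower and 7 higher (median -0.93), or 26 and 3 with a pseudocount of 5. None of 9 GRF, 14 TCP and 14 SPL genes was called higher, while 6, 9 and 7 of them were called lower. SPL10 (LOC_Os06g44860) had 0.248, 0.158 and 0.177 FPKM at flowering, against 20.8, 26.9 and 26.1 FPKM at booting. GRF3 (LOC_Os04g51190), of a family that promotes cell division in growing organs, had 1.79, 2.11 and 2.02 FPKM at flowering, against 13.5, 16.8 and 14.96 FPKM at booting. The stages stood apart in both (log2 change -4.41, SE 0.12, adjusted p = 2.25e-08 and log2 change -2.43, SE 0.11, adjusted p = 3.33e-07). TCP7 (LOC_Os02g58180) and SPL16 (LOC_Os08g41940) had log2 changes of -1.49 and -2.39, and homeobox-leucine zipper HOX33 (LOC_Os12g41860) of -3.05.

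YABBY factors, which mark the lower face of lateral organs in many plants, did not move together. YABBY 4 (LOC_Os02g42950) had 0.873, 0.812 and 0.589 FPKM at flowering, against 20.7, 29.4 and 28.6 FPKM at booting, and YABBY 3 (LOC_Os10g36420) and YABBY 5 (LOC_Os04g45330) had log2 changes of -2.64 and -1.47. YABBY 6 (LOC_Os12g42610) instead had 326, 274 and 254 FPKM at flowering, against 44.1, 44.99 and 35.05 FPKM at booting. For both of the genes given by library the stages did not overlap (log2 change -3.94, SE 0.15, adjusted p = 1.3e-07 and log2 change 2.75, SE 0.13, adjusted p = 4.18e-07). Of 7 members 3 were called lower and 2 higher, and the higher count was 1 without booting replicate 3 or without flowering replicate 2 or 3. The list's median of -0.05 was 0.14 under median-of-ratios scaling.

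Auxin genes had 32 of 102 called lower and 21 higher, or 14 and 8 with a pseudocount of 5. Among 23 auxin response factors, the DNA-binding readers of the hormone, 7 were called lower and 1 higher. ARF11 (LOC_Os04g56850) fell, at 0.3102 ± 0.0702 FPKM at flowering and 15.4 ± 1.69 FPKM at booting (log2 change -3.64, SE 0.11, adjusted p = 4.82e-08), and ARF5 (LOC_Os02g04810) rose, at 19.1 ± 2.47 FPKM at flowering and 6.51 ± 0.974 FPKM at booting (log2 change 1.42, SE 0.13, adjusted p = 1.96e-05). Of 11 carriers 7 were lower and 2 higher. Synthesis and inactivation had members that rose: YUCCA2 (LOC_Os01g12490), an enzyme of auxin synthesis, at 21.4 ± 6.66 FPKM at flowering and 0.292 ± 0.199 FPKM at booting (log2 change 4.08), and GH3.2 (LOC_Os01g55940) and GH3.8 (LOC_Os07g40290), which couple auxin to amino acids, at log2 changes of 4.81 and 4.36.

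**Figure D4:**
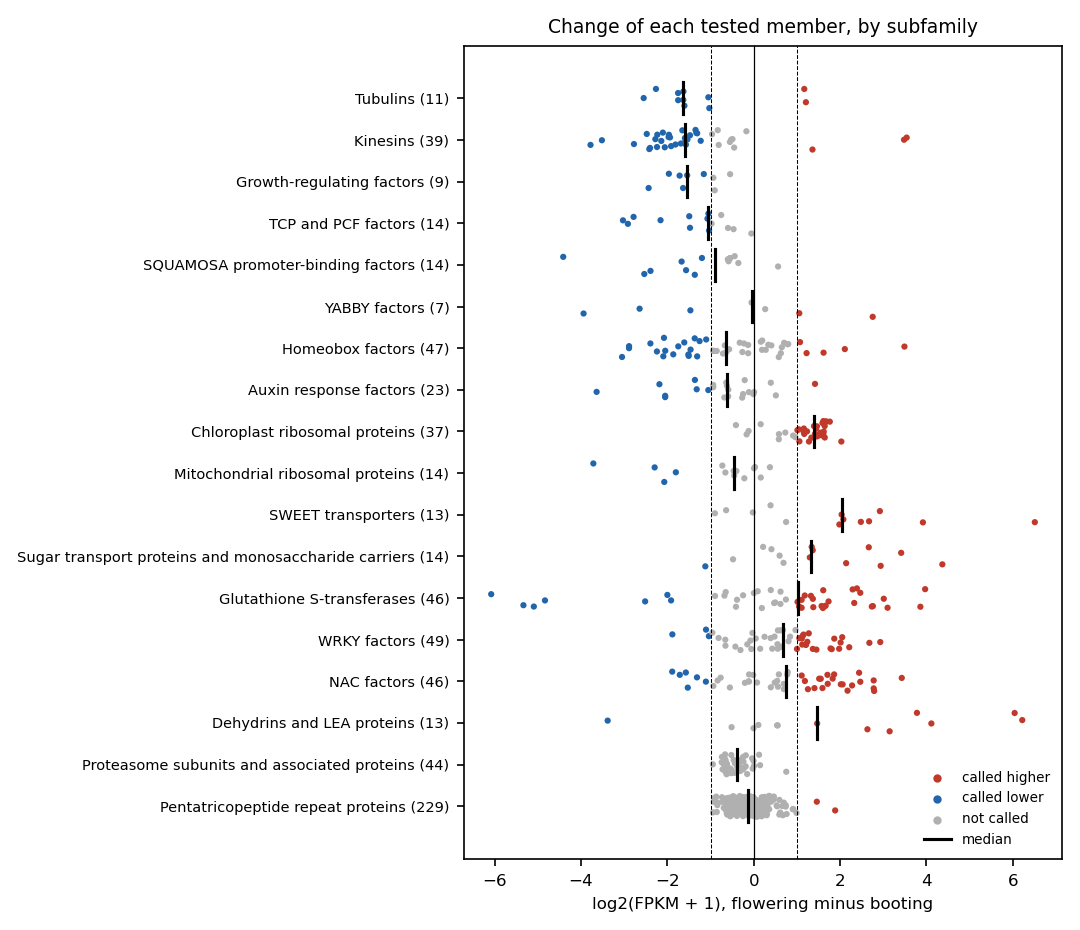
Log2 change, flowering minus booting, of every tested member of 18 subfamilies (number tested in brackets), with the median as a black bar and dashed lines at an absolute change of 1. Tubulins, kinesins, GRF and TCP genes lie mostly left of -1, chloroplast ribosomal proteins mostly right of 1, and proteasome genes between the dashed lines.

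Gibberellin genes had 11 of 24 called higher and 2 lower (median 0.83), with 7 higher at a pseudocount of 5. The risers included enzymes that make the hormone and enzymes that inactivate it. A gibberellin 20-dioxygenase (LOC_Os07g07420) had 50.99, 97.8 and 107 FPKM at flowering, against 2.42, 4.36 and 1.94 FPKM at booting. Gibberellin 3-beta-dioxygenase 2-2 (LOC_Os05g08540), of the last step to active hormone, had 27.1, 38.4 and 42.1 FPKM at flowering, against 0.3899, 1.56 and 0.277 FPKM at booting. Of 6 gibberellin 2-oxidases, which inactivate the hormone, 4 were called higher. Gibberellin 2-beta-dioxygenase 2 (LOC_Os05g06670) had 143, 239 and 221 FPKM at flowering, against 0.8701, 6.901 and 1.39 FPKM at booting. In these 3 genes the flowering libraries were all above the booting libraries (log2 change 4.44, SE 0.31, adjusted p = 3.5e-06 for the 20-dioxygenase, log2 change 4.45, SE 0.27, adjusted p = 1.82e-06 for the 3-beta-dioxygenase and log2 change 5.91, SE 0.49, adjusted p = 9.89e-06 for the 2-beta-dioxygenase). In flag leaves the 3 means were 0.118 ± 0.131 FPKM, 0.0147 ± 0.0254 FPKM and 0.375 ± 0.102 FPKM.

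The gibberellin receptor GID1 (LOC_Os05g33730) fell, at 13.9 ± 1.401 FPKM at flowering and 37.6 ± 2.91 FPKM at booting (log2 change -1.37, SE 0.10, adjusted p = 3.97e-06). The DELLA repressor SLR1 (LOC_Os03g49990) had 41.1 ± 3.01 FPKM at flowering and 29.7 ± 1.16 FPKM at booting and was not called (log2 change 0.46). Gibberellin-regulated protein 5 (LOC_Os06g15620) fell, at 65.97 ± 3.44 FPKM at flowering and 232 ± 38.9 FPKM at booting (log2 change -1.79). Enzymes known in rice for defence diterpenoids more than for gibberellin also rose, ent-copalyl diphosphate synthase 2 (LOC_Os02g36210) at 37.1 ± 5.77 FPKM at flowering and 0.147 ± 0.0275 FPKM at booting (log2 change 5.04) and ent-kaurene oxidase-like 1 (LOC_Os06g37300) at 37.2 ± 3.48 FPKM at flowering and 1.103 ± 0.0439 FPKM at booting (log2 change 4.18).

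Jasmonate in grasses controls floret opening and in Arabidopsis anther opening and filament growth. Of 33 genes 15 were called higher and 6 lower (median 0.57), with 9 higher at a pseudocount of 5. The higher genes were mainly TIFY (JAZ) genes, repressors that the hormone itself induces, of which 9 of 12 were called higher and none lower. TIFY 11c (LOC_Os03g08320) had 43.1, 61.3 and 46.5 FPKM at flowering, against 6.86, 2.46 and 1.78 FPKM at booting, and TIFY 10c (LOC_Os09g26780) had 65.7, 60.4 and 57.8 FPKM at flowering, against 12.8, 9.68 and 7.25 FPKM at booting. Neither gene overlapped between stages (log2 change 3.59, SE 0.35, adjusted p = 2.64e-05 and log2 change 2.54, SE 0.17, adjusted p = 2.81e-06). JAR1 (LOC_Os05g50890), which makes the active amino acid conjugate, rose, at 75.2 ± 13.96 FPKM at flowering and 18.5 ± 1.99 FPKM at booting (log2 change 1.95), and so did the receptor COI2 (LOC_Os03g15880), at 51.4 ± 3.53 FPKM at flowering and 21.9 ± 1.06 FPKM at booting (log2 change 1.19). OPR7 (LOC_Os08g35740), of jasmonate synthesis, had 63.9 ± 2.07 FPKM at flowering and 42.7 ± 3.78 FPKM at booting and was not called (log2 change 0.57). The 3 genes with the largest decrease were all 60 kDa jasmonate-induced proteins, led by LOC_Os10g42060 at 0.0256 ± 0.0257 FPKM at flowering and 18.03 ± 4.26 FPKM at booting (log2 change -4.19).

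Of the 4 MYB genes with the largest increases, 3 have the descriptions of factors that act downstream of jasmonate in Arabidopsis stamens. MYB24 (LOC_Os12g37690) had 42.1, 61.5 and 49.3 FPKM at flowering, against 0.214, 0.208 and 0.127 FPKM at booting. MYB21 (LOC_Os05g49310) had 16.5, 27.1 and 15.2 FPKM at flowering, against 0.0408, 0.0403 and 0 FPKM at booting, and MYB108 (LOC_Os11g45740), known for anther opening, had 58.4, 53.5 and 52.9 FPKM at flowering, against 1.61, 2.6 and 1.42 FPKM at booting. The flowering libraries of all 3 stood far above their booting libraries (log2 change 5.44, SE 0.14, adjusted p = 1.57e-08 for MYB24, adjusted p = 3.74e-07 for MYB21 and adjusted p = 7.98e-08 for MYB108). Myb-related protein 305 (LOC_Os01g45090), a nectary and flower factor in tobacco and snapdragon, was the other of the 4, at 38.3 ± 8.77 FPKM at flowering and 0.771 ± 0.237 FPKM at booting (log2 change 4.46). Over 58 MYB genes 17 were called higher and 21 lower, or 10 and 13 with a pseudocount of 5, and the median of -0.16 was 0.01 under median-of-ratios scaling. Myb-related 308 (LOC_Os08g33660) and Hv33 (LOC_Os01g36460) were among the decreases (log2 changes -4.04 and -3.46).

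The list of 45 ethylene and cytokinin genes had 16 called higher and 6 lower. The ACC oxidases, which release ethylene, included LOC_Os02g53180 at 195 ± 35.7 FPKM at flowering and 14.4 ± 4.01 FPKM at booting (log2 change 3.69, SE 0.20, adjusted p = 9.96e-07) and LOC_Os09g27750 at a log2 change of 3.19. Response regulators, which cytokinin induces, were among the decreases, ORR7 (LOC_Os07g26720) at 0.389 ± 0.0708 FPKM at flowering and 11 ± 1.995 FPKM at booting (log2 change -3.1) and ORR11 (LOC_Os02g42060) at 0.703 ± 0.417 FPKM at flowering and 10.8 ± 2.65 FPKM at booting (log2 change -2.79). A cytokinin-activating phosphoribohydrolase (LOC_Os04g43840) fell, at 1.25 ± 0.445 FPKM at flowering and 25.1 ± 2.65 FPKM at booting (log2 change -3.55). ERF073 (LOC_Os03g08490) and the DREB1-type factors 1G (LOC_Os02g45450) and 1E (LOC_Os04g48350), of families tied to hypoxia and cold in Arabidopsis, had log2 changes of 4.19, 3.46 and 3.35. Of 54 AP2/ERF genes 19 were higher and 7 lower, or 10 and 1 with a pseudocount of 5.

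Dehydrins and LEA proteins, which protect cells that lose water, had 7 of 13 called higher and 1 lower. Dehydrin 13 (LOC_Os03g45280) had 1319, 1189 and 1148 FPKM at flowering, against 80.6, 84.02 and 49.2 FPKM at booting. Lea5-D (LOC_Os01g21250) had 514, 535 and 517 FPKM at flowering, against 8.07, 6.54 and 6.31 FPKM at booting. Flowering libraries were the higher ones without exception (log2 change 4.11, SE 0.20, adjusted p = 4.7e-07 and log2 change 6.04, SE 0.10, adjusted p = 2.81e-09). In flag leaves these genes had 962 ± 105 FPKM and 516 ± 8.11 FPKM. Lea5-A (LOC_Os05g29930) had 93.2 ± 13.3 FPKM at flowering and 0.259 ± 0.0903 FPKM at booting (log2 change 6.22) and, in leaves, 0.781 ± 0.429 FPKM. Dehydrin COR410 (LOC_Os02g44870) had 697 ± 82.2 FPKM at flowering and 478 ± 47.1 FPKM at booting and was not called (log2 change 0.54). LEA D-34 (LOC_Os03g06360) fell, at 0.704 ± 0.202 FPKM at flowering and 16.7 ± 0.532 FPKM at booting (log2 change -3.38).

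WRKY and NAC factors, many of them tied to stress and ageing, had 42 of 95 called higher and 9 lower (median 0.70), or 20 and 2 with a pseudocount of 5. WRKY 50 (LOC_Os05g09020) had 109, 139 and 97.7 FPKM at flowering, against 17.8, 19.3 and 7.98 FPKM at booting. Its stages did not overlap (log2 change 2.93, SE 0.29, adjusted p = 3.12e-05). NAC 21/22 (LOC_Os06g46270) had 20.8 ± 1.66 FPKM at flowering and 1.04 ± 0.292 FPKM at booting (log2 change 3.43) and NAC 48-like (LOC_Os05g34830) 17.4 ± 7.23 FPKM at flowering and 1.55 ± 0.6195 FPKM at booting (log2 change 2.79). Among the decreases was NAC 43 (LOC_Os06g04090), of the type that drives secondary walls in Arabidopsis, at 6.15 ± 0.816 FPKM at flowering and 20.3 ± 2.85 FPKM at booting (log2 change -1.57, SE 0.13, adjusted p = 8.8e-06). A second gene of that description (LOC_Os08g02300) had 24.1 ± 12.8 FPKM at flowering and 38.2 ± 1.09 FPKM at booting. Its stages overlapped and it was not called (log2 change -0.77).

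Sugar transporters had 27 of 45 called higher and 2 lower (median 1.19), or 18 higher with a pseudocount of 5. SWEET proteins let sugar pass down its gradient. Of 13, 8 were called higher and none lower, with 1 lower under equal library sums. SWEET5 (LOC_Os05g51090) had 412, 621 and 459 FPKM at flowering, against 4.99, 4.72 and 3.57 FPKM at booting, and SWEET4 (LOC_Os02g19820) had 253, 247 and 218 FPKM at flowering, against 45.7, 51.1 and 31.5 FPKM at booting. SWEET13 (LOC_Os12g29220) rose, at 74.98 ± 27.4 FPKM at flowering and 3.96 ± 1.29 FPKM at booting (log2 change 3.92). SWEET1a (LOC_Os01g65880) had 32.01 ± 1.63 FPKM at flowering and 60.5 ± 2.32 FPKM at booting and was not called (log2 change -0.9) except with equal library sums. The stages were apart for SWEET5 and SWEET4 (log2 change 6.51, SE 0.16, adjusted p = 1.45e-08 and log2 change 2.48, SE 0.17, adjusted p = 3.06e-06).

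Sucrose/proton carriers take up sucrose against its gradient. SUT3 (LOC_Os10g26470) had 22.3, 29.1 and 25.6 FPKM at flowering, against 0.01603, 0.0615 and 0.0539 FPKM at booting, and SUT1 (LOC_Os03g07480), known for phloem and grain filling, had 27.05, 22.9 and 23.1 FPKM at flowering, against 2.17, 2.83 and 1.69 FPKM at booting. SUT3 was near 0 in all booting libraries, and neither gene overlapped (log2 change 4.67, SE 0.12, adjusted p = 1.36e-08 and log2 change 2.98, SE 0.14, adjusted p = 4.46e-07). SUT4 (LOC_Os02g58080) had 9.09 ± 0.434 FPKM at flowering and 10.9 ± 1.21 FPKM at booting and was not called. Among hexose carriers, monosaccharide-sensing protein 2 (LOC_Os11g28610) rose, at 22.4 ± 2.198 FPKM at flowering and 0.1297 ± 0.0278 FPKM at booting (log2 change 4.37), and a hexose transporter (LOC_Os10g39440) fell, at 36.3 ± 1.54 FPKM at flowering and 80.1 ± 5.28 FPKM at booting (log2 change -1.12), a call lost under median-of-ratios scaling.

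Water channels had calls in both directions. Of 24 aquaporins 10 were called higher and 4 lower. TIP1-2 (LOC_Os01g74450), of the vacuolar membrane, had 110.4, 109 and 116 FPKM at flowering, against 1.13, 1.803 and 0.781 FPKM at booting, and the pollen-type TIP5-1 (LOC_Os04g46490) had 13.1 ± 2.57 FPKM at flowering and 0.0258 ± 0.0446 FPKM at booting (log2 change 3.77). PIP2-6 (LOC_Os04g16450), of the plasma membrane, had 22.7, 20.3 and 18.6 FPKM at flowering, against 391.5, 391 and 568 FPKM at booting, and NIP1-1 (LOC_Os02g13870) had 29.8 ± 7.14 FPKM at flowering and 282 ± 25.4 FPKM at booting (log2 change -3.22). Flowering libraries were the higher ones for TIP1-2 and the lower ones for PIP2-6, with no overlap (log2 change 5.68, SE 0.15, adjusted p = 2.12e-08 and log2 change -4.37, SE 0.15, adjusted p = 9.23e-08). Silicon channel NIP2-1 (LOC_Os02g51110) rose, at 24.8 ± 2.78 FPKM at flowering and 0.358 ± 0.248 FPKM at booting (log2 change 4.26).

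Proton pumps and potassium transport had 27 of 71 called higher and 7 lower, or 11 and 3 with a pseudocount of 5. Of 4 genes described as plasma membrane ATPase 1, which builds the proton gradient used by carriers, 1 was called higher, 1 lower and 2 not called. The higher one (LOC_Os07g09340) had 240.4, 213 and 211 FPKM at flowering, against 55.6, 57.02 and 49.8 FPKM at booting. The lower one (LOC_Os03g01120) had 1.43 ± 0.183 FPKM at flowering and 4.87 ± 0.365 FPKM at booting (log2 change -1.27), a call lost with a pseudocount of 5. The outward potassium channel KOR1 (LOC_Os06g14030) had 47.97, 51.5 and 43.1 FPKM at flowering, against 1.24, 1.08 and 0.902 FPKM at booting. The first of these pumps and KOR1 were higher in each flowering library (log2 change 2.01, SE 0.09, adjusted p = 3.49e-07 and log2 change 4.55, SE 0.11, adjusted p = 9e-09). Of 19 V-ATPase subunits 17 were not called and 2 were called higher, of which subunit E2 (LOC_Os05g40230) had 82.6 ± 10.03 FPKM at flowering and 0.464 ± 0.131 FPKM at booting (log2 change 5.83). A vacuolar pyrophosphate-driven pump (LOC_Os06g08080) fell, at 45.7 ± 4.26 FPKM at flowering and 177 ± 15.9 FPKM at booting (log2 change -1.93).

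Most genes tested of the plastid ribosome rose, as did most green tissue markers given above. Of 37 chloroplast ribosomal proteins tested, 28 were called higher and none lower (median 1.40), and those called had log2 changes from 1.01 to 2.03. Plastid-specific ribosomal protein 1 (LOC_Os03g63950) had 42.1, 37.3 and 66.7 FPKM at flowering, against 10.5, 12.8 and 9.34 FPKM at booting, and L10 (LOC_Os03g17580) had 24.9, 21.3 and 24.4 FPKM at flowering, against 6.52, 6.32 and 5.82 FPKM at booting. Each flowering library was above each booting library (log2 change 2.03, SE 0.21, adjusted p = 3.62e-05 and log2 change 1.76, SE 0.09, adjusted p = 7.3e-07). The 9 not called included S19 genes at low levels.

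None of 14 mitochondrial ribosomal proteins was called higher. The 4 called lower are all annotated as mitochondrial-genome proteins on chromosome 12, among them S12 (LOC_Os12g34062, chromosome 12, 20453492 to 20453869, plus strand), with 1.18, 3.61 and 1.58 FPKM at flowering, against 55.6, 31.7 and 30.7 FPKM at booting, and L16 (LOC_Os12g34128), with 3.83 ± 0.674 FPKM at flowering and 23.7 ± 9.65 FPKM at booting (log2 change -2.29). For S12 the stages did not overlap (log2 change -3.71, SE 0.31, adjusted p = 1.07e-05). These nuclear loci resemble genes of the mitochondrial genome, so their reads may be shared with it and the values are uncertain. Of 19 chlorophyll synthesis genes 5 were called higher and 1 lower, or 3 higher with equal library sums and 2 with a pseudocount of 5. The cyclase of magnesium-protoporphyrin monomethyl ester (LOC_Os01g17170) had 150.1 ± 16.9 FPKM at flowering and 60.2 ± 5.91 FPKM at booting (log2 change 1.3, SE 0.11, adjusted p = 1.28e-05). Protoporphyrinogen oxidase (LOC_Os01g18320) fell, at 7.41 ± 0.936 FPKM at flowering and 18.7 ± 0.729 FPKM at booting (log2 change -1.23), a call lost with a pseudocount of 5.

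Antioxidant genes had 44 of 88 called higher and 9 lower (median 0.99). Of 3 catalases, which break down hydrogen peroxide, 2 were higher. The gene LOC_Os02g02400 had 621, 726 and 508 FPKM at flowering, against 18.8, 17.3 and 14.6 FPKM at booting, and catalase-1 (LOC_Os03g03910) had 190.2, 147 and 163 FPKM at flowering, against 6.67, 6.77 and 6.23 FPKM at booting. Their stages did not overlap (log2 change 5.1, SE 0.15, adjusted p = 2.82e-08 and log2 change 4.47, SE 0.10, adjusted p = 8.06e-09). Catalase isozyme B (LOC_Os06g51150) had 57.5 ± 5.24 FPKM at flowering and 96.03 ± 5.27 FPKM at booting and was not called (log2 change -0.73). The leaf levels were 110.1 ± 14.03 FPKM for LOC_Os02g02400 and 1795 ± 90.5 FPKM for catalase-1.

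Metallothioneins, small metal-binding proteins that are often induced as tissues age, had 4 of 5 called higher. Metallothionein 3A (LOC_Os01g10400) had 2460.2, 1979 and 2136 FPKM at flowering, against 113, 161 and 84.5 FPKM at booting. All flowering libraries were above the booting ones (log2 change 4.23, SE 0.22, adjusted p = 7.77e-07), and flag leaves had 14158 ± 849 FPKM. Metallothionein 2C (LOC_Os05g02070) had 985 ± 75.9 FPKM at flowering and 764 ± 88.6 FPKM at booting and was not called, with a log2 change of 0.37 that was -0.153 under quantile normalization. Chloroplast ascorbate peroxidase 8 (LOC_Os02g34810) rose, at 99.3 ± 8.38 FPKM at flowering and 9.403 ± 3.48 FPKM at booting (log2 change 3.32), and so did dehydroascorbate reductase 2 (LOC_Os05g02530), at 635 ± 67.6 FPKM at flowering and 245 ± 3.68 FPKM at booting (log2 change 1.37), although not under quantile normalization. Glutathione S-transferases as a whole had 24 of 46 called higher and 7 lower, with the phi-class genes given above among those called lower.

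Flavonoid genes had 16 of 37 called higher and 4 lower (median 0.87), or 9 and 0 with a pseudocount of 5. Several are described as anthocyanidin reductases, among which LOC_Os04g53810 rose, at 33.5 ± 5.46 FPKM at flowering and 0.315 ± 0.1603 FPKM at booting (log2 change 4.71) and its neighbour LOC_Os04g53800 fell, at 2.92 ± 0.412 FPKM at flowering and 10.4 ± 1.17 FPKM at booting (log2 change -1.54), a call lost with a pseudocount of 5. In carbon metabolism, 16 of 74 glycolysis and citrate cycle genes were called higher and 4 lower. A cytosolic aldolase (LOC_Os10g08022) had 208, 229 and 171 FPKM at flowering, against 0.431, 0.472 and 0.591 FPKM at booting, a gap with no overlap (log2 change 7.08, SE 0.12, adjusted p = 2.84e-09). Glyoxysomal malate dehydrogenase (LOC_Os03g56280), known from leaf peroxisomes, rose, at 166 ± 12.3 FPKM at flowering and 19.7 ± 3.57 FPKM at booting (log2 change 3.02). Hexokinase-7 (LOC_Os05g09500) and a plastidial pyruvate kinase (LOC_Os01g47080) fell, with log2 changes of -1.92 and -1.38. Among genes of storage lipid synthesis and oil bodies, 3 of 11 were higher and none lower, led by a peroxygenase (LOC_Os04g43200) at 81.1 ± 6.499 FPKM at flowering and 1.59 ± 1.52 FPKM at booting (log2 change 5.14).

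Several housekeeping systems had few calls. None of 44 proteasome genes, subunits and associated proteins together, was called, against 34.7% of all genes. In limma 34 had an unadjusted p under 0.05, and members also passed the adjusted p with changes short of the size threshold. Subunit beta type-3 (LOC_Os06g43570), for 1, had a log2 change of -0.65 (adjusted p = 7.65e-05). The median log2 change of the 44 was -0.38, and with a pseudocount of 0.1 a pair was called lower. The list summed to 1749 to 1795 FPKM at flowering and 2270 to 2568 FPKM at booting. Of 229 pentatricopeptide repeat proteins, which process organelle RNA, 2 were called higher and none lower. The larger of these changes was that of a chloroplast member (LOC_Os04g49350), at 36.9 ± 3.84 FPKM at flowering and 9.25 ± 0.874 FPKM at booting (log2 change 1.89). Of 39 subunits and assembly factors of the mitochondrial respiratory chain 1 was higher and none lower, and their median of 0.13 was -0.01 with equal library sums. Ribosome biogenesis had 3 of 48 called lower and none higher, or 5 lower without booting replicate 1, with nucleolin (LOC_Os05g03440) at 4.21 ± 0.844 FPKM at flowering and 24.3 ± 1.41 FPKM at booting (log2 change -2.29). Translation factors had 2 of 54 higher and 4 lower, and autophagy had 1 of 19 higher, ATG8D (LOC_Os11g01010), at 11.3 ± 0.401 FPKM at flowering and 4.26 ± 0.308 FPKM at booting (log2 change 1.22), which was not called with a pseudocount of 5.

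The list of histone modifiers and DNA methylation enzymes, which also holds chromatin remodeling genes, had 15 of 71 called lower and 2 higher. The lower count was 7 under median-of-ratios scaling and 3 with a pseudocount of 5, and the higher count was 1 without booting replicate 2 or 3 or flowering replicate 1 or 2. CHROMATIN REMODELING 24 (LOC_Os04g59620) had 5.42 ± 0.587 FPKM at flowering and 16.4 ± 1.24 FPKM at booting (log2 change -1.44), and the Polycomb methyltransferase EZ1 (LOC_Os06g16390), which sets the repressive mark on histone H3, had 10.5, 12.4 and 13.3 FPKM at flowering, against 29.4, 29.7 and 29.1 FPKM at booting. The booting libraries of EZ1 were all above its flowering libraries (log2 change -1.22, SE 0.09, adjusted p = 6.57e-06). Of 380 F-box and RING ubiquitin ligases, 46 were called higher and 40 lower, or 25 and 13 with a pseudocount of 5. An F-box gene (LOC_Os01g17390) had 521 ± 53.2 FPKM at flowering and 39.4 ± 1.66 FPKM at booting (log2 change 3.69).

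The most abundant genes with an absolute log2 change under 0.2 were an extensin (LOC_Os05g13940), a wall glycoprotein, with 1679, 1192 and 1339.8 FPKM at flowering, against 1752, 1538 and 1303 FPKM at booting, and actin-1. They also included phenylalanine ammonia-lyase (LOC_Os02g41630, 497 ± 124 FPKM at flowering and 559.6 ± 138 FPKM at booting), cytosolic ascorbate peroxidase 2 (LOC_Os07g49400, 471 ± 61.3 FPKM at flowering and 484 ± 65.6 FPKM at booting), enolase (LOC_Os10g08550, 412 ± 26.3 FPKM at flowering and 454 ± 61.2 FPKM at booting) and actin-depolymerizing factor 2 (LOC_Os03g56790, 303 ± 9.65 FPKM at flowering and 329.7 ± 17.9 FPKM at booting). The sign of such small changes depends on scaling.

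**Figure D5:**
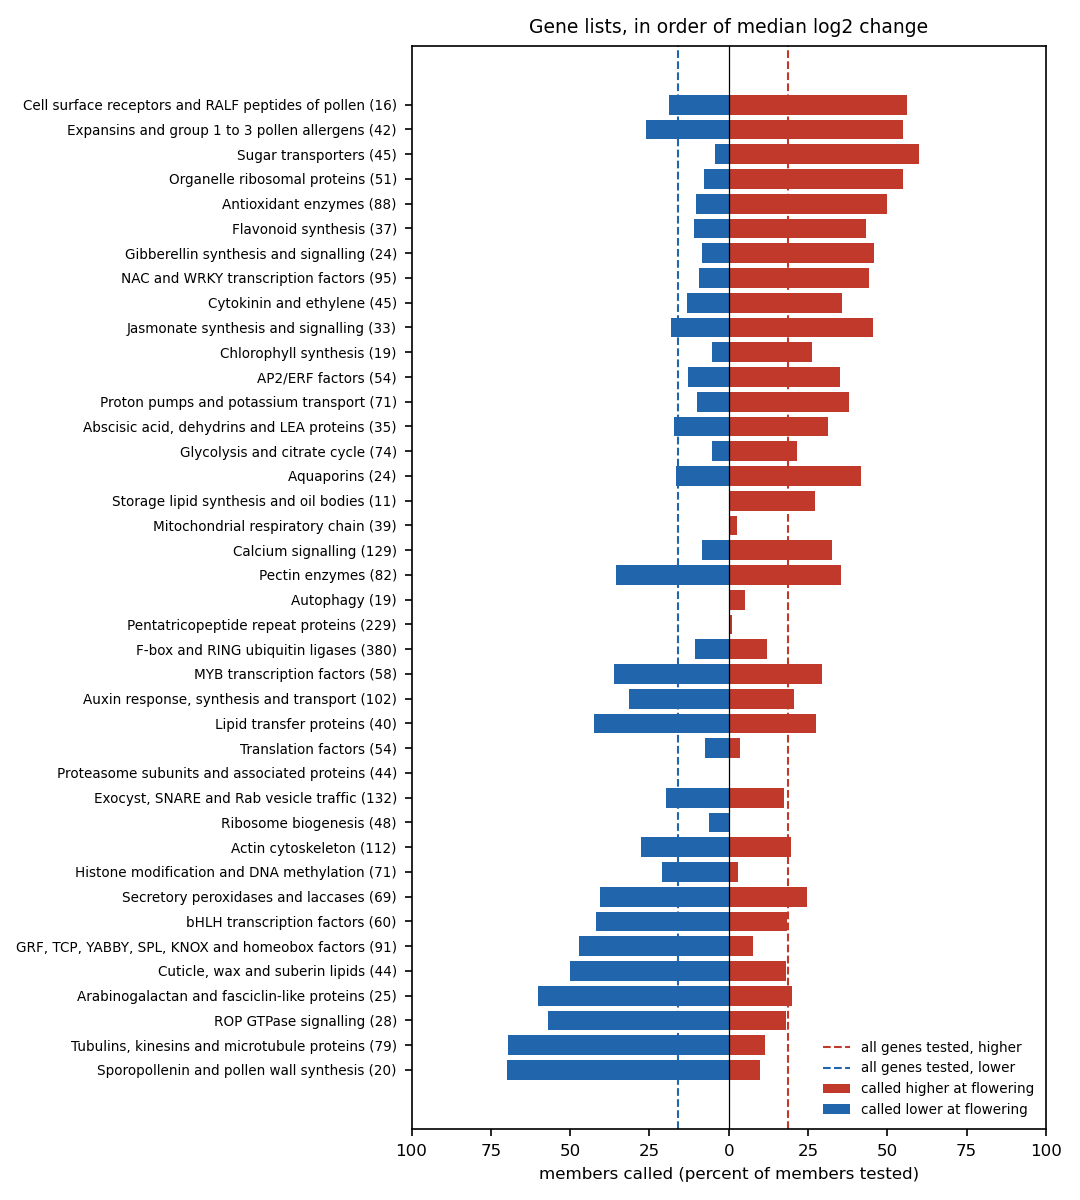
Percent of tested members called higher (right) and lower (left) at flowering for 40 gene lists, in order of median log2 change and with the number tested in brackets. Dashed lines mark the share of all genes tested, 18.8% higher and 15.9% lower. Expansins, sugar transporters and antioxidant genes extend past the right line, microtubule and sporopollenin genes past the left one, and proteasome genes have no bar.

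Flag leaf libraries, which had no part in the test, gave a further reading of the called genes. The flag leaf mean was under 1 FPKM for 33.7% of the genes called higher, 63.3% of those called lower and 15.9% of those not called. It was above the mean of both panicle stages for 35.6% of the genes called higher, 1.01% of those called lower and 24.2% of those not called. Median log2(FPKM + 1) in the leaf was 2.55 for genes called higher, 0.44 for genes called lower and 3.04 for genes not called. The leaves too were collected at the flowering stage.

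The deposited m6A peak lists, 1 per stage made from its pooled libraries, were read for whether a gene had any peak. In the flowering list 44.9% of genes called higher, 53.7% of genes called lower and 73.7% of genes not called had a peak. In the booting list these shares were 42.9%, 55.1% and 73.7%. Among genes with a mean of at least 20 FPKM over the 6 libraries, the flowering list held 48.9% of genes called higher, 69.2% of genes called lower and 88.7% of genes not called. The booting list held 51% of the first, 67.8% of the second and 89.1% of the last. Peak calls depend on level and have no replicate values, so the shares are a description.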

How the data were processed

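The labels describe 18 libraries; used here were 6 inputs of flowering and booting panicles, with 3 flag leaf inputs and the deposited peak lists as further readings. The authors deposited FPKM per gene; per the submitters' processing notes the tools were cutadapt, HISAT2, StringTie, HOMER and ChIPseeker, with no versions given. Genome build and annotation are not given in the sources, nor is it given whether quantification used strand, so antisense partners may share reads. Coordinates are those of the deposited table. Per the file headers, each pooled peak has the authors' fold of immunoprecipitate over input, a ratio, and p-values, which were not used.

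Genes with at least 1 FPKM in 3 of the 6 libraries were tested on log2(FPKM + 1) with limma 3.58.1 (trend, R 4.3.3). The same fit was also run on simulated data. Depth was estimated from the smallest FPKM steps, and its precision is approximate. Lists of genes were matched by words in the descriptions of the deposited table, which named 12880 of the genes tested. The members and lists were chosen with earlier results of these data known, and the 42 subfamilies after the list counts were seen; words that matched genes of another kind were then narrowed. Named for each of 40 lists were up to 3 genes with the largest increase and 3 with the largest decrease that were called, averaged 10 FPKM or more in the higher stage, had an informative description and did not overlap between stages; some are left out of the text. Added were the 5 most abundant genes of each stage and the 10 most abundant with an absolute change under 0.2. A further 58 genes were chosen after their values were seen, among them those given as not called, the genes without description, the MADS genes and most second members of a family. Alternatives covered pseudocounts, filters, scaling, the libraries fitted, a replicate block and leaving out each library.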

Additional observations from a re-analysis of the deposited data

How the results depend on the processing

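The counts of genes called, 4207 higher and 3574 lower, depended most on the pseudocount and the size threshold: a pseudocount of 5 gave 2408 higher and 1959 lower, and a size threshold of 2 on the log2 scale gave 1815 higher and 1134 lower. Other settings stayed within 1.5 times, among them a pseudocount of 0.1 (4857 and 4337), at least 5 FPKM (2999 and 2715), no filter (4283 and 3638), all 9 inputs (4203 and 3575), equal library sums (3860 and 4167), quantile normalization (3893 and 3978) and median-of-ratios scaling (4752 and 3005). Scaling moved the median of all genes to -0.238 with equal sums and 0.045 with median-of-ratios, and the share of calls that were higher was 48.1% and 61.3% with these, against 54.1% as deposited. Leaving out 1 library gave 4059 to 4316 higher and 3504 to 3708 lower. The replicate block gave 4210 higher and 3576 lower. The numbers were not taken to pair the samples, since deviations of same-numbered libraries correlated at only -0.026 to 0.101 and not every library correlated best with its own number. Of 172 list and subfamily counts, 65 moved by over 1.5 times with a pseudocount of 5, 33 with the filter at 5 FPKM, which leaves fewer genes to test, 12 with median-of-ratios scaling and at most 9 in any other setting.

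Of 264 named genes, 11 lost their call with a pseudocount of 5, 6 with median-of-ratios scaling and at most 2 under quantile normalization or without any 1 library. Signs turned for genes with changes near 0. By median-of-ratios scaling the log2 change was 0.062 for LOC_Os05g13940, 0.026 for LOC_Os02g41630, 0.151 for LOC_Os07g49400, 0.169 for LOC_Os04g17100, 0.061 for LOC_Os10g08550 and 0.070 for LOC_Os03g56790. Quantile normalization gave -0.318 for LOC_Os03g50885, -0.411 for LOC_Os10g33800, -0.341 for LOC_Os02g03860, -0.393 for LOC_Os01g46926 and -0.153 for LOC_Os05g02070. Equal sums gave -0.084 for LOC_Os10g33800, -0.030 for LOC_Os02g03860 and -0.112 for LOC_Os01g46926. Leaving out 1 library gave -0.138 to 0.067 for LOC_Os07g49400, -0.137 to 0.133 for LOC_Os04g17100 and -0.061 to 0.093 for LOC_Os01g46926. The cause was not tested.

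With only peaks of a deposited fold of at least 2 counted, the flowering list had a peak for 41.0% of genes called higher, 51.8% of those called lower and 71.4% of those not called, and the booting list for 42.0%, 51.3% and 71.9% of the same. The order of the 2 lists thus turned for genes called higher and for genes called lower (with any peak, 44.9% and 53.7% in the flowering list, 42.9% and 55.1% in the booting list). A search of promoters was not run, because no promoter sequences were used here.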
